A study of Rattus norvegicus with 82 samples.

Results

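The expression of prostaglandin synthesis enzymes and receptors was followed across right ventricular (RV) and left ventricular (LV) cardiomyocytes of rats with pressure overload. The 10 genes were chosen by symbol, and comprised the cyclooxygenases Ptgs1 and Ptgs2, the terminal synthases Ptges, Ptges2, Ptges3, Ptgis and Ptgds, and the receptors Ptgfr, Ptger3 and Ptger4. They were 10 of the 17337 genes counted, and 9 of them were among the 11954 genes that passed the filter on low counts.

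Cardiac myocytes were isolated from both ventricles of 41 rats by collagenase digestion and centrifugation, giving 82 RNA-seq libraries in 12 groups. Clips on the pulmonary artery (PAB) put the load on the RV, clips on the aorta (AOB) put it on the LV, and controls were sham-operated. H denotes the compensatory stage and F heart failure, and each ventricle had 7 libraries of Sham-H and 9 of Sham-F, 6 each of PAB-H, AOB-H and PAB-F, and 7 of AOB-F. All animals, controls included, were an F1 generation of female Wistar Kyoto and male Lewis rats of both sexes. Males and females numbered 3 and 4 in Sham-H, 4 and 2 in PAB-H and 2 and 4 in AOB-H. At the F stage they numbered 4 and 5 in Sham-F, 4 and 2 in PAB-F and 4 and 3 in AOB-F, so sex was not balanced between banded and sham groups. The labels give the H groups an age of 11 weeks and 7 weeks of treatment, Sham-F and AOB-F 31 and 26 weeks, and PAB-F 28 and 22 weeks, so that the age of PAB-F was below that of its sham controls. The methods of the study state other ages, with the groups in the same order. Those ages match the age at surgery given there and the treatment times of the labels. The labels' own ages and treatment times give no common age at surgery. The clips did not constrict the vessel when placed, and load built up with growth.

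Prostaglandins are made from arachidonic acid, which phospholipases release from membranes. Cyclooxygenases convert it to prostaglandin H2, and terminal synthases turn this intermediate into prostaglandin E2, prostaglandin D2 or prostacyclin, which act on G protein-coupled receptors of the same or neighbouring cells. In the heart, prostacyclin dilates vessels, prostaglandin E2 acts on inflammation and on myocyte growth through its receptors, and prostaglandin F2α is a known stimulus of cardiomyocyte hypertrophy.

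The libraries held between 6675287 and 19665439 counts. The libraries carried the genes of cardiomyocytes at a high level, with 9 contractile and calcium-handling markers taking 6.05% to 12.9% of all counts. Markers of other heart cells were present at low levels, with 0.0416% to 0.580% of the counts on 10 fibroblast genes, 0.0654% to 0.542% on 8 endothelial genes and 0.00189% to 0.0528% on 8 macrophage genes. In bulk libraries, fewer cells of a type and less RNA per cell cannot be told apart.

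The members differed widely in level per length, in FPKM (fragments scaled to gene length and library size) as the authors deposited them. The cytosolic prostaglandin E2 synthase Ptges3, also known as the Hsp90 co-chaperone p23, had a median of 64.2 FPKM over the 82 libraries, and the membrane-associated synthase Ptges2 had a median of 53.5 FPKM. The receptor for prostaglandin E2 that raises cAMP, Ptger4, followed at 16.1 FPKM. These 3 genes varied by a factor of 4.03 to 6.6 between the lowest and the highest library.

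The remaining enzymes and receptors were expressed at a lower level. Median levels were 7.42 FPKM for Ptgfr, the prostaglandin F2α receptor, 6.27 FPKM for Ptgds, the lipocalin-type prostaglandin D2 synthase, and 5.26 FPKM for Ptgis, the prostacyclin synthase. The constitutive cyclooxygenase Ptgs1 had 2.01 FPKM and the inducible cyclooxygenase Ptgs2 had 1.66 FPKM. Ptgs2 had the widest range of the members found in every library, with 237 times more in the highest library than in the lowest. The receptor Ptger3, which lowers cAMP, was detected at 0.524 FPKM and was listed at 0 in 2 libraries.

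Ptges, the inducible microsomal prostaglandin E2 synthase, was nearly absent. It had 46 counts in all, between 0 and 6 per library, and 62 of the 82 libraries had none, where a count of 0 allows up to 3 counts. It did not pass the filter on low counts and no difference between groups was detectable at this depth.

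**Figure D1:**
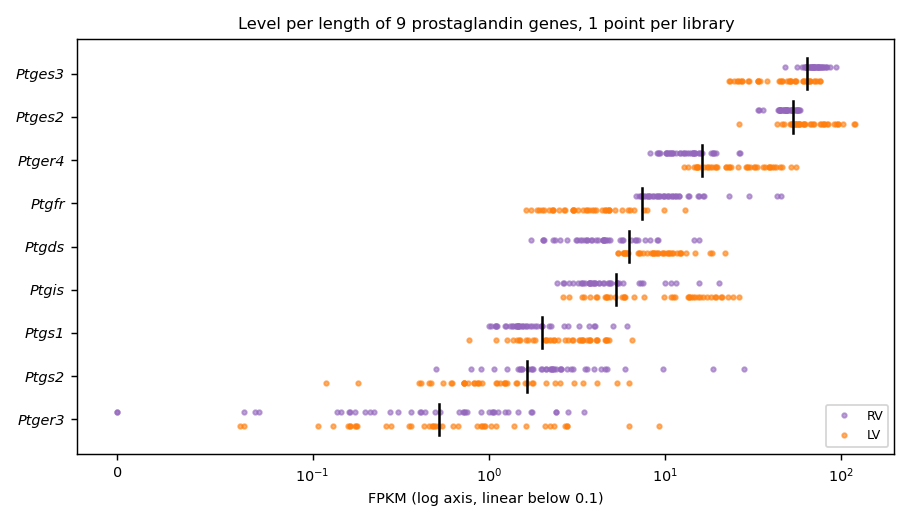
Level per length of the 9 members that passed the filter, in FPKM on a log axis that is linear below 0.1. Each point is a library (purple RV, orange LV, 41 each) and black bars are medians over the 82 libraries, from 64.2 for Ptges3 to 0.524 for Ptger3. Ptgfr points lie mostly higher in the RV, and Ptgds and Ptger4 points mostly higher in the LV.

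Upstream sequences are shown for the 3 members that passed the test in both failing loaded ventricles (Ptgs2, Ptgds, Ptger3), with Ptgs1 beside them as the cyclooxygenase that passed it in the RV alone of these comparisons. They are the 250 bases before the annotated start in RefSeq (build GRCr8, 5′ to 3′ on the strand of the gene), and 8 of the 10 members had an entry. Capitals mark matches to motifs searched on both strands.
Ptgs2: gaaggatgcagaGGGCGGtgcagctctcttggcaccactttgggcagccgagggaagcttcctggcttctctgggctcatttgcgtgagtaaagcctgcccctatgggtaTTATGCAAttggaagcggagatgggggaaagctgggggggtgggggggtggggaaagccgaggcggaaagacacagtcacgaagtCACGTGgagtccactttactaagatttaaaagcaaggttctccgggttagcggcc
Ptgds: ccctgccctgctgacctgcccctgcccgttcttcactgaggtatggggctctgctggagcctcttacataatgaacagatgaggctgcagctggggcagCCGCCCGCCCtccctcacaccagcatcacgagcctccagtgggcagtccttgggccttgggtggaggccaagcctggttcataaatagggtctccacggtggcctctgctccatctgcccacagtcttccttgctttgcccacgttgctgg
Ptger3: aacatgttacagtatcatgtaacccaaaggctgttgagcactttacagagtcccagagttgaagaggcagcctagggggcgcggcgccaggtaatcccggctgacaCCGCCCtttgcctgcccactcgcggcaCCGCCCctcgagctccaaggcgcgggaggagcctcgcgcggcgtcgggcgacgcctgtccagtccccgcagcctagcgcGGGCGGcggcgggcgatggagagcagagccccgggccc
Ptgs1: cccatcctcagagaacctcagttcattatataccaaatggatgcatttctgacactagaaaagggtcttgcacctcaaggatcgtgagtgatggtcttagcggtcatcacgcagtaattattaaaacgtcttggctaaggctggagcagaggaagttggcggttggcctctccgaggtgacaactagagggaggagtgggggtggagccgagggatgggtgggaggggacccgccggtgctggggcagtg

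The Ptgs2 stretch (chr13:64713813-64714062, plus strand) held a CACGTG E-box 55 to 50 bases before the start, a C/EBP motif (TTGCNNAA) 140 to 133 bases before it and a GC box (GGGCGG) 238 to 233 bases before it. Of 33469 promoter windows of this length, 5.59% held the E-box, 9.22% the C/EBP motif and 30.5% the GC box. Ptgds (chr3:28682979-28683228, minus strand) had 2 overlapping GC boxes and Ptger3 (chr2:249264832-249265081, plus strand) had 3 GC boxes. No motif was matched in the Ptgs1 window (chr3:39981169-39981418, plus strand). The other motifs searched were TATAAA (in 12.9% of windows), CGTCA (18.2%), TGANTCA (6.34%) and NF-kB (5.18%), none of which lay in the 4 windows. A match describes letters, not binding, and the promoters were not assayed.

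In the failing RV upon PAB, 5 of the 9 members tested were raised, against 11.1% of all genes tested that passed in either direction (edgeR, Benjamini-Hochberg adjusted p under 0.05, as in all comparisons). These were both cyclooxygenases, Ptgis, Ptgds and Ptger3. The median log2 fold change was 1.01 over the 9 members and 0.016 over all genes tested. Both prostaglandin E2 synthases and the receptors Ptgfr and Ptger4 did not pass the test.

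Ptgs2 had normalized counts of 12.2, 51.6 and 63.01 (lowest, median and highest) in RV Sham-F and of 37.1, 75.2 and 698 in RV PAB-F. In 4 of 6 PAB-F libraries it exceeded every sham library, and 1 library stood far above the others. The log2 fold change was 1.90 ± 0.48 (SE, n = 6 and 9, edgeR adjusted p = 0.00467). Ptgs1 ranged from 39.1 to 76.2 with a median of 54.8 in RV Sham-F, and from 46.9 to 194 with a median of 95.3 in RV PAB-F. Here 5 of 6 PAB-F libraries lay above all sham libraries, and the log2 fold change was 1.01 ± 0.30 (edgeR adjusted p = 0.0168).

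Among the terminal synthases, Ptgds had lowest, median and highest normalized counts of 20.6, 24.4 and 72.4 in RV Sham-F and of 37.3, 82.1 and 161 in RV PAB-F. All 6 PAB-F libraries were above the sham median and 3 were above every sham library. Ptgds had a log2 fold change of 1.43 ± 0.27 with the smallest adjusted p of the members in this comparison (edgeR adjusted p = 0.000131). Ptgis went from 58.6, 84.1 and 121 in RV Sham-F to 64.9, 169 and 354 in RV PAB-F, with 4 of 6 libraries above all controls and a log2 fold change of 1.14 ± 0.32 (edgeR adjusted p = 0.012). Ptges3 was at 1530, 1712 and 2060 in RV Sham-F and at 1085, 1388 and 1603 in RV PAB-F. Although 5 of 6 PAB-F libraries lay below every sham library, its log2 difference of -0.32 did not pass the test (edgeR adjusted p = 0.169).

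Of the receptors, Ptger3 had 1.22, 5.13 and 24.8 normalized counts in RV Sham-F and 6.18, 30.3 and 59.9 in RV PAB-F. All 6 PAB-F libraries were above the sham median and 3 were above every sham library, with a log2 fold change of 1.76 ± 0.56 (edgeR adjusted p = 0.0251). The differences of Ptgfr (0.41) and Ptger4 (0.30) were smaller than the spread between animals.

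Most calls in the failing RV depended on 1 library. Without RV PAB-F replicate 1, the library with the highest Ptgs2 level, Ptgds remained called (log2 fold change 1.22, edgeR adjusted p = 0.00434) and Ptgs2 (0.60, adjusted p = 0.511), Ptgs1 (0.78, adjusted p = 0.16), Ptgis (0.86, adjusted p = 0.148) and Ptger3 (1.49, adjusted p = 0.147) were not. All 5 log2 fold changes stayed above 0, and that of Ptgs2 fell the most. The number of all genes called was 358 of 12015 without this library, against 1325 of 11954 with it. Ptgs1 also lost its call without replicate 5, and Ptger3 without PAB-F replicate 2 or Sham-F replicate 7 or 8. Ptgds kept its call when any 1 of the 15 libraries was left out (1.22 to 1.64).

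Replicate 1 of RV PAB-F also stood apart in markers of other cells. Macrophage genes made up 0.0271% of its counts, the third highest of the 82 libraries, and cardiomyocyte genes 8.86%. In RV PAB-F as a group, 4 of 9 fibroblast, 4 of 8 macrophage, 2 of 8 endothelial and 2 of 8 mural markers were raised. Summed shares were 0.00284% to 0.0271% for macrophage and 0.0786% to 0.284% for fibroblast genes in RV PAB-F, against 0.00189% to 0.00619% and 0.0416% to 0.132% in RV Sham-F, with Col1a2 at 0 in all libraries of both groups. Their part in the rise of the members was not tested.

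**Figure D2:**
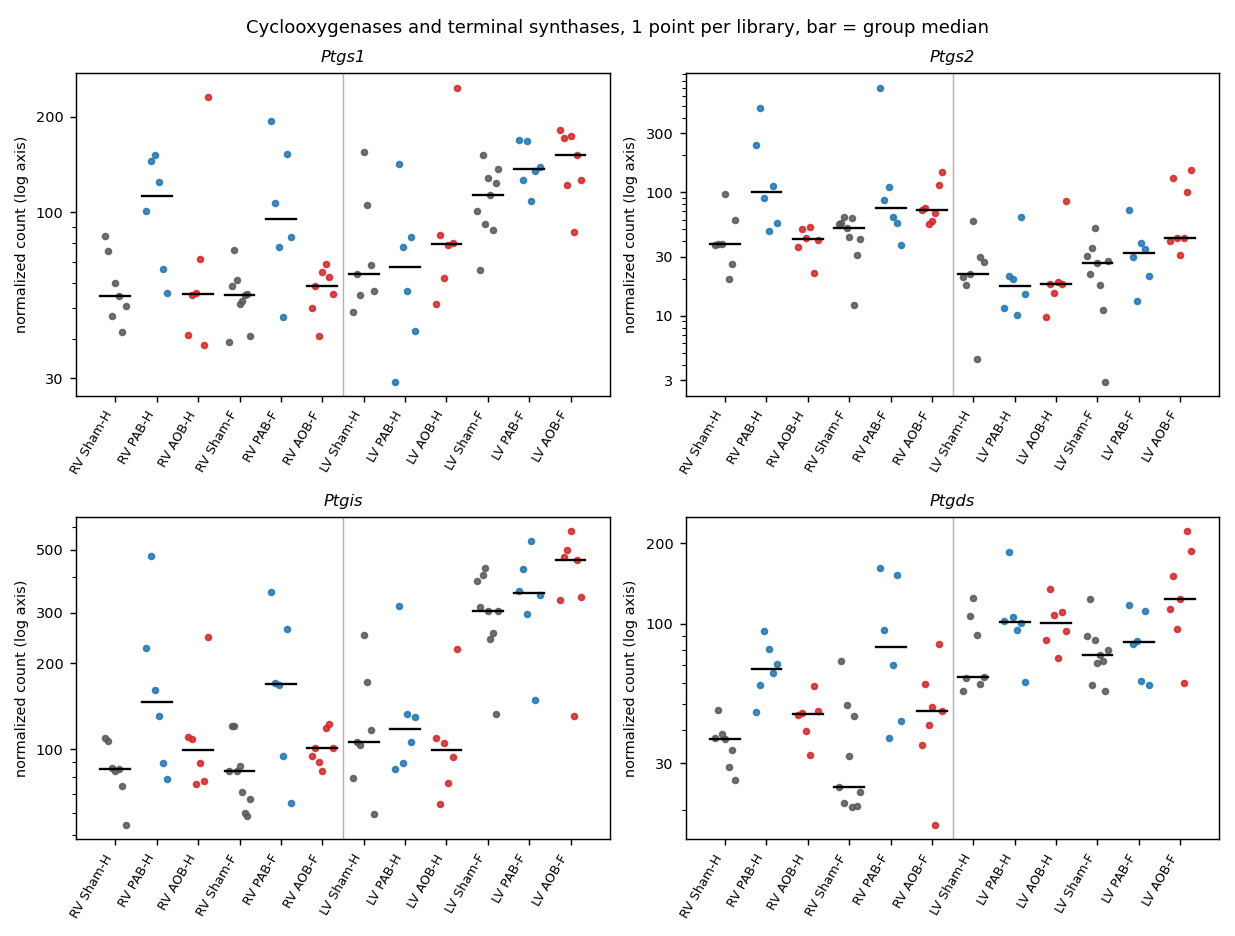
Normalized counts (log axis) of Ptgs1, Ptgs2, Ptgis and Ptgds in the 12 groups, with RV groups left and LV groups right of the grey line. Points are libraries (grey sham, blue PAB, red AOB) and bars are group medians. The single RV PAB-F library at 698 for Ptgs2 and the higher Ptgis level in all LV groups at the F stage stand out.

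At the compensatory stage of PAB, 3 of 9 members were raised in the RV, against 4.5% of all genes tested. Ptgs2 had 19.7, 37.8 and 96.8 normalized counts in RV Sham-H and 48.9, 101 and 480 in RV PAB-H, a log2 fold change of 1.93 ± 0.51 (n = 6 and 7, edgeR adjusted p = 0.0197). Ptgis had 54.5, 85.7 and 109 in RV Sham-H and 79.03, 146 and 473 in RV PAB-H (1.18 ± 0.34, edgeR adjusted p = 0.0324). Ptgds had 26.0, 36.99 and 47.7 in RV Sham-H and 46.9, 67.9 and 93.9 in RV PAB-H (0.95 ± 0.29, edgeR adjusted p = 0.0405). Groups overlapped for each gene, with 3, 4 and 5 of 6 PAB-H libraries above all sham libraries. Ptgs1 had a log2 difference of 0.86 ± 0.31 and did not pass (edgeR adjusted p = 0.089), although 4 of 6 libraries lay above all controls.

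None of these 3 calls held without RV PAB-H replicate 2, where Ptgs2 was at 1.29 (edgeR adjusted p = 0.363), Ptgis at 0.68 (adjusted p = 0.47) and Ptgds at 0.99 (adjusted p = 0.177), and where 27 of 12013 genes were called. This library had the highest fibroblast share of all 82 (0.580%). Without Sham-H replicate 3, 5, 6 or 7, Ptgs2 was the 1 member called. The calls of Ptgis and Ptgds were lost without 6 and 8 of the 13 libraries, and both with sex as a covariate. All 9 fibroblast markers tested were raised in RV PAB-H, with summed shares of 0.0741% to 0.580% against 0.0448% to 0.101% in RV Sham-H. Raised as well were 1 of 8 endothelial, 1 of 8 mural and 1 of 3 epicardial or mesothelial markers. No macrophage marker passed, but the median log2 fold change of the 8 tested was 0.96, against 0.99 in RV PAB-F, where 4 passed. The part of these markers in these results was not tested.

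The response of the RV to PAB did not differ between the stages for any member (0 of 9, with 0% of all genes tested). At an unadjusted p under 0.05 there were 0 members and 177 genes, and DESeq2 called none. The largest stage difference was that of Ptger3 (1.17 on the log2 scale, 95% interval -0.52 to 2.87), and Ptgs2 was at -0.03 (-1.42 to 1.36). This comparison, and that of the AOB stages in the LV, was added after the values had been seen.

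In the failing LV upon AOB, 4 of 9 members were raised, against 12.9% of all genes tested. Ptgs2, Ptgds and Ptger3 passed as in the failing RV, with Ptges3 in place of Ptgs1 and Ptgis, and the difference between these 2 comparisons was not tested. The median log2 fold change was 0.43 over the members and 0.04 over all genes tested. The sham libraries of the comparisons in RV and LV differ but come from the same animals.

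Ptgs2 had 2.94, 26.5 and 51.2 normalized counts in LV Sham-F and 30.8, 42.7 and 152 in LV AOB-F. All 7 AOB-F libraries were above the sham median and 3 were above every sham library, with a log2 fold change of 1.61 ± 0.48 (n = 7 and 9, edgeR adjusted p = 0.0165). Ptger3 had 4.46, 14.2 and 45.4 in LV Sham-F and 5.83, 46.2 and 155 in LV AOB-F, with 4 of 7 libraries above all controls (1.86 ± 0.49, edgeR adjusted p = 0.0075). Ptgds had 55.9, 76.6 and 124 in LV Sham-F and 60.2, 124 and 222 in LV AOB-F, with 4 of 7 libraries above all controls (0.78 ± 0.25, edgeR adjusted p = 0.0259).

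Ptges3 had 569, 668 and 1149 normalized counts in LV Sham-F and 541, 1086 and 1246 in LV AOB-F. The groups overlapped over most of their range, with 1 library above and 1 below all controls, and the log2 fold change was 0.43 ± 0.15 (edgeR adjusted p = 0.0473). The membrane-associated synthase Ptges2 was at -0.29 (edgeR adjusted p = 0.118). Ptgs1 and Ptgis, which had higher levels in the LV than in the RV at this stage already in the controls, each had a log2 difference of 0.38 upon AOB and did not pass.

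The number of members called changed with single libraries and with the model. Without LV AOB-F replicate 6 the only member called was Ptgs2 (949 genes called in all), and without replicate 7 it was Ptger3 (751 genes), where Ptgs2 was at 1.37 (edgeR adjusted p = 0.0752). Without LV Sham-F replicate 8, Ptger3 and Ptgs2 were called. Ptges3 lost its call without 11 of the 16 libraries. A fit to these 2 groups alone called none of the members and 15 of 11296 genes.

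Replicates 6 and 7 had the lowest cardiomyocyte shares of all libraries (6.05% and 6.31%) and the highest macrophage shares (0.0437% and 0.0528%). They also had the highest Ptger3 (155 and 105) and Ptgds (222 and 187) levels of their group. Of the marker lists, 4 of 8 macrophage, 2 of 8 endothelial, 1 of 8 mural and 0 of 9 fibroblast genes were raised in LV AOB-F. Macrophage shares spanned 0.00586% to 0.0528% in LV AOB-F and 0.00541% to 0.0187% in LV Sham-F, with no marker of the list at 0 in all libraries of a group. Their part in the result was not tested.

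At the compensatory stage of AOB, 0 of 9 members passed in the LV by edgeR, as did 0.0167% of all genes tested, and DESeq2 called 0 members. Ptges2 alone of the members had an unadjusted p under 0.05, as did 2387 of 11954 genes, with a log2 difference of -0.52 ± 0.14 (edgeR adjusted p = 0.0983), and it passed without LV Sham-H replicate 2 (-0.52, edgeR adjusted p = 0.0449). Its normalized counts were 1495, 1601 and 2596 in LV Sham-H and 729, 1354 and 1500 in LV AOB-H. Ptgs2 was level between these groups (-0.01, 95% interval -1.13 to 1.11). The change of its response from H to F was 1.62 ± 0.74 and did not pass (edgeR adjusted p = 0.456), as for 0 of 9 members and 0% of all genes. At an unadjusted p under 0.05, Ptgs2 and 1148 genes passed this comparison, and DESeq2 called 36 genes and 0 members.

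**Figure D3:**
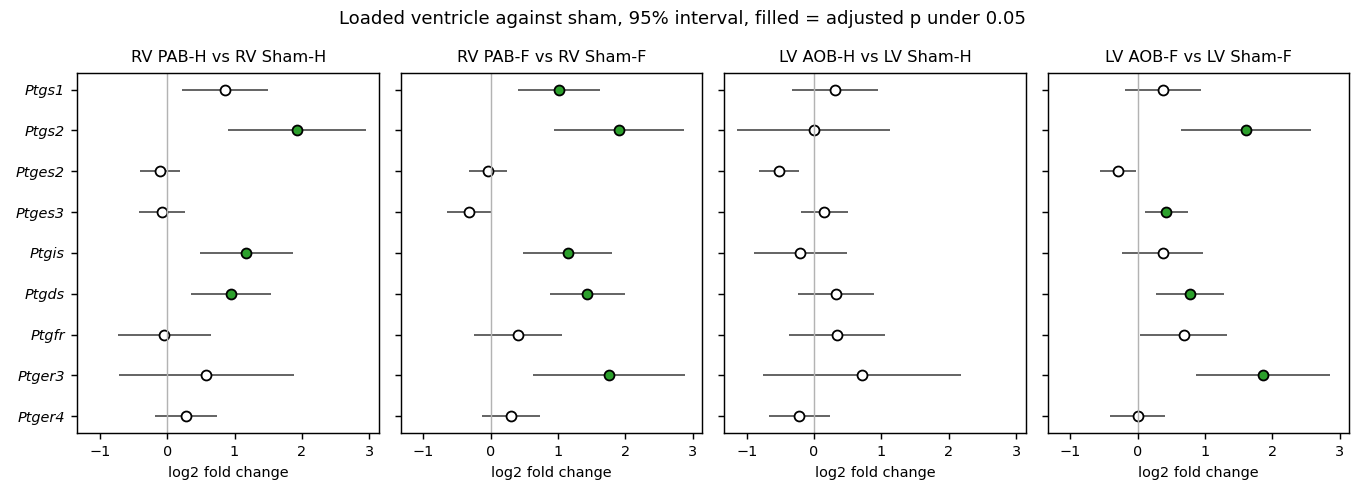
Log2 fold changes of the 9 members tested in the loaded ventricle against sham, in 4 comparisons. Circles are estimates, lines 95% intervals, and filled circles passed an adjusted p under 0.05 in edgeR. Passing members number 3 in RV PAB-H, 5 in RV PAB-F, 0 in LV AOB-H and 4 in LV AOB-F, and Ptgs2 sits between 1.61 and 1.93 in the comparisons where it passed.

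In the ventricle away from the band, no member passed in edgeR or DESeq2. In LV PAB-H 0 of 9 members and 0% of all genes were called, and 0 members and 305 genes had an unadjusted p under 0.05. In LV PAB-F 0 of 9 members and 0% of all genes were called, and 2 members (Ptges2 and Ptgfr) and 454 genes were below this unadjusted p. In RV AOB-H 0 of 9 members and 0% of all genes were called, and 0 members and 171 genes were below it. In RV AOB-F, 0 of 9 members passed with either tool, 2 had an unadjusted p under 0.05, and 0.0669% of all genes were called. Those 2 members were the receptors Ptgfr (1.05 ± 0.30, edgeR adjusted p = 0.341) and Ptger3 (1.19, edgeR adjusted p = 1).

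Ptgfr had 291, 350 and 934 normalized counts in RV Sham-F and 365, 633 and 1838 in RV AOB-F. The highest values of AOB-F, 1838 and 1760, came from replicates 6 and 7, the same animals whose LV libraries had the highest macrophage shares. Their LV libraries also had the highest Ptgfr levels of LV AOB-F (396 and 252). In LV PAB-F, Ptgfr was at 120, 146 and 513 against 66.7, 92.3 and 305 in LV Sham-F (0.89 ± 0.33, edgeR adjusted p = 1).

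Differences between the responses of the ventricles were tested directly. None of the 9 members passed for PAB-H (0% of all genes), AOB-H (0%) or AOB-F (0%), and none for PAB-F, where 0.351% of all genes passed. At an unadjusted p under 0.05 there were 3 members for PAB-H (with 1104 genes), 1 for AOB-H (577 genes), 2 for AOB-F (1161 genes) and 3 for PAB-F (1538 genes), and DESeq2 called 0 members in each. The response of Ptgds to PAB-F was 1.31 ± 0.38 larger in the RV than in the LV (edgeR adjusted p = 0.114). When the animal was entered as a block, it was 1.25 and passed (edgeR adjusted p = 0.00756, 2.92% of all genes called). It also passed without RV PAB-F replicate 3 or 6. Ptgds was higher in the LV than in the RV in 9 of 9 Sham-F animals, and in the RV in 4 of 6 PAB-F animals.

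The ventricles of sham-operated hearts differed in several members. In Sham-H, 4 of 9 members passed, against 21% of all genes tested, and in Sham-F 7 of 9, against 74.3%, so that the count in Sham-F was near the background. Ptgfr, the prostaglandin F2α receptor, had the largest excess in the RV among the 9 members in both sham groups. It had 331, 395 and 557 normalized counts in RV Sham-H and 81.4, 123 and 197 in LV Sham-H, without overlap, a log2 difference of 1.57 ± 0.33 (n = 7 and 7, edgeR adjusted p = 0.000787). In Sham-F the difference was 1.90 ± 0.29 (n = 9 and 9, edgeR adjusted p = 5.4e-08). Ptgfr was higher in the RV than in the LV of the same animal in 41 of 41 animals of all groups.

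Ptgds showed the opposite order in both sham groups. It had 26.0, 36.99 and 47.7 normalized counts in RV Sham-H and 56.2, 62.95 and 125 in LV Sham-H, again without overlap (-1.18 ± 0.28, edgeR adjusted p = 0.00215), and was at -1.21 ± 0.25 in Sham-F (edgeR adjusted p = 1.29e-05). Over all groups it was higher in the LV in 36 of 41 animals. Ptger4 was lower in the RV by -0.71 ± 0.21 in Sham-H (edgeR adjusted p = 0.0139) and by -1.31 ± 0.19 in Sham-F (edgeR adjusted p = 4.46e-09), and higher in the LV in 39 of 41 animals. The Sham-H calls of Ptger4 and of Ptges2 (-0.41 ± 0.13, edgeR adjusted p = 0.0221) were lost without LV Sham-H replicate 4 (-0.58, adjusted p = 0.0945, and -0.29, adjusted p = 0.172), which left 2 members called.

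The prostaglandin E2 synthases went in opposite directions in Sham-F. Ptges2 had 1232, 1361 and 1551 normalized counts in the RV and 1839, 2303 and 3290 in the LV (-0.79 ± 0.12, edgeR adjusted p = 1.55e-08). Ptges3 had 1530, 1712 and 2060 in the RV and 569, 668 and 1149 in the LV (1.18 ± 0.14, edgeR adjusted p = 2.2e-11). Neither gene overlapped between the ventricles, in a comparison where 74.3% of all genes passed in either direction. The share of all genes without overlap was not determined for either sham comparison.

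Ptgis also did not overlap in Sham-F, with 58.6, 84.1 and 121 in the RV and 133, 305 and 432 in the LV (-1.88 ± 0.29, edgeR adjusted p = 3.47e-08). Ptgs1 was lower in the RV (-1.02 ± 0.27, edgeR adjusted p = 0.000502), with 8 of 9 libraries below all LV libraries. Ptgs2 was at 0.88 and did not pass (edgeR adjusted p = 0.0761), but passed with the animal as a block (0.96, edgeR adjusted p = 0.00729), and it was higher in the RV in 37 of 41 animals. The calls of the 7 members in Sham-F held when any 1 of the 18 libraries was left out.

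Markers of other cells differed between the ventricles of Sham-F as well. Lower in the RV were 7 of 9 fibroblast, 6 of 8 endothelial, 5 of 8 mural and 4 of 8 macrophage genes and both platelet genes tested, against 74.3% of all genes called in either direction. Higher in the RV were 1 endothelial and 1 mural gene. The endothelial share was 0.0654% to 0.111% in RV Sham-F and 0.198% to 0.361% in LV Sham-F, and the fibroblast share 0.0416% to 0.132% and 0.157% to 0.424%. The part of these cells in the differences of the members was not tested, neither for those lower in the RV nor for Ptgfr and Ptges3, which were higher there.

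**Figure D4:**
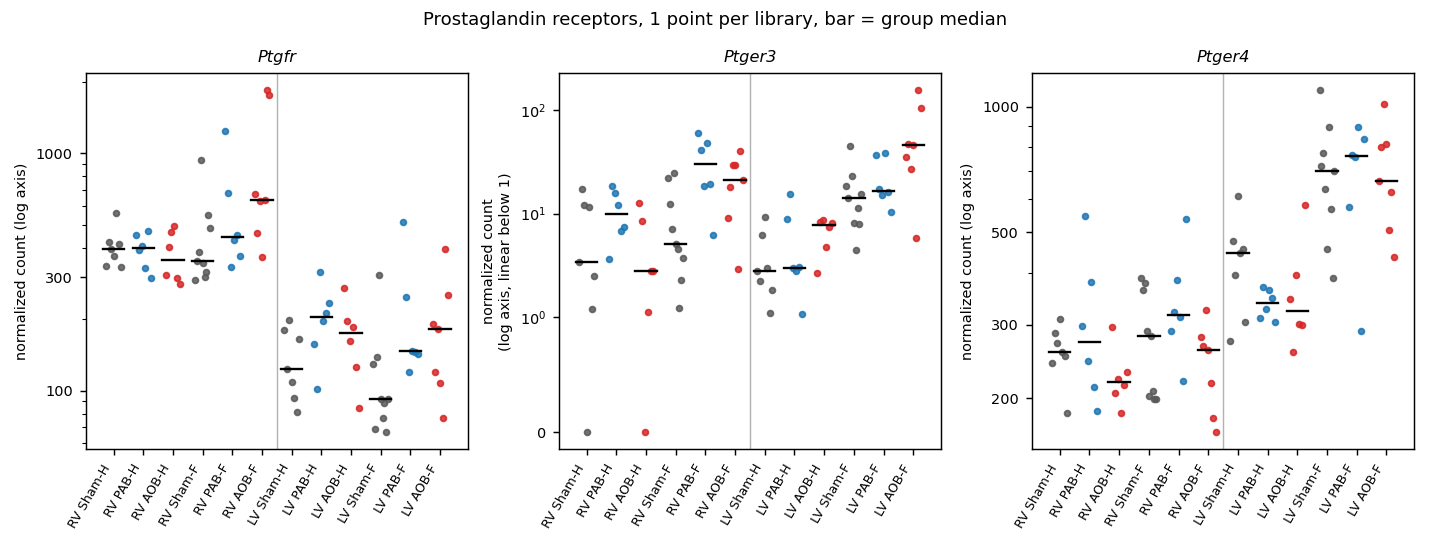
Normalized counts of Ptgfr, Ptger3 and Ptger4 in the 12 groups (log axes, that of Ptger3 linear below 1), with RV groups left and LV groups right of the grey line. Points are libraries (grey sham, blue PAB, red AOB) and bars are group medians. Ptgfr is higher in RV groups and reaches 1838 in RV AOB-F, and Ptger4 is highest in the LV groups at the F stage.

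Between the sham groups of the H and F stages, which differ in age and in time after surgery, members passed in the LV and none in the RV, a difference that was not tested itself. In the RV 0 of 9 members passed with edgeR and with DESeq2, none had an unadjusted p under 0.05, and 0.0502% of all genes passed. In the LV 5 of 9 members passed, against 57.4% of all genes, again near the background. Ptger3 had 1.1, 2.81 and 9.22 normalized counts in LV Sham-H and 4.46, 14.2 and 45.4 in LV Sham-F (2.03, edgeR adjusted p = 0.003). Ptgis had 59.3, 106 and 251 in LV Sham-H and 133, 305 and 432 in LV Sham-F (1.276, edgeR adjusted p = 0.00036), with 7 of 9 libraries above all younger ones. Ptger4 (0.71, adjusted p = 0.00195) and Ptges2 (0.40, adjusted p = 0.00618) rose in the edgeR test, and Ptges3 fell by 0.75 on the log2 scale (edgeR adjusted p = 2.83e-05). Fibroblast markers were also raised in LV Sham-F (5 of 9), as were 3 of 8 endothelial, 5 of 8 mural and 4 of 8 macrophage markers, with 1 endothelial and 1 mural marker lower, and their part in these changes was not tested.

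Other genes of the pathway were counted in the same comparisons, 36 of 44 listed genes passing the filter. In RV PAB-F, 8 of 36 were called, 5 up and 3 down, against 11.1% of all genes tested. The thromboxane synthase Tbxas1 (1.18), the inducers of Ptgs2 expression Il1b (1.47), its receptor Il1r1 (0.67) and Tlr4 (0.89), and the glucocorticoid-induced Anxa1 (1.08) rose. The carbonyl reductase Cbr1 (-1.09), which can convert prostaglandin E2 to F2α, the secreted phospholipase Pla2g5 (-0.48) and the prostaglandin reductase Zadh2 (-0.37) fell. Of these 8 calls only that of Cbr1 held without RV PAB-F replicate 1, where the change of Il1b was 0.34. Tbxas1 lost its call without 10 of the 15 libraries. In RV PAB-H, 4 of 36 were called, against 4.5% of all genes, with Il1r1 (0.73) and Tlr4 (1.23) up and Cbr1 (-1.19) and Pla2g5 (-0.40) down. As for the members, none of these 4 calls held without RV PAB-H replicate 2, and Pla2g5 lost its call without 10 of the 13 libraries.

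In LV AOB-F, 10 of 36 pathway genes were called, 8 up and 2 down, against 12.9% of all genes tested. Of the 8 with the smallest adjusted p, the prostaglandin transporter Slco2a1 (1.17), Alox5ap (1.16) and Lta4h (0.34) of the leukotriene branch, Il1b (1.78), Il1r1 (0.64), Il6 (1.56) and Nfkb1 (0.20) rose, and the phospholipase Pla2g6 (-0.38) fell. Without LV AOB-F replicate 7, a library with a high macrophage share, Il1b was at 0.92 (edgeR adjusted p = 0.184), and Slco2a1, Alox5ap and Il6 also lost their calls. These last 3 were lost without replicate 6 as well, and Il6 without 7 of the 16 libraries. The calls of Lta4h, Il1r1, Nfkb1 and Pla2g6 held when any 1 library was left out. None of the 36 was called in LV AOB-H or in the ventricle away from the band. Between the sham ventricles, 8 of 36 were called in Sham-H, against 21% of all genes, and 26 of 36 in Sham-F, against 74.3%, so that both counts were near the background. The smallest adjusted p in Sham-H were those of the monoacylglycerol lipase Mgll (-0.77, edgeR adjusted p = 0.00321) and the prostaglandin E2 receptor Ptger1 (-0.55, edgeR adjusted p = 0.00763), both lower in the RV. Mgll kept its call when any 1 of the 14 libraries was left out, and Ptger1 lost it without LV Sham-H replicate 4 or 5.

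Within groups, members varied with marker genes of other heart cells, most of them with several lists. Group means were removed from log2 CPM, and the remainder of each member was correlated with the mean of each of 6 marker lists and with the other members, 90 pairs in all. Values are given for the list with the highest r and for lists close to it, and differences between lists were not tested. Ptgs2 varied most closely with the macrophage markers (Pearson r = 0.71, Spearman rho = 0.69, n = 82, permutation adjusted p = 6.43e-05 for r), with r = 0.82 within the 41 RV libraries and 0.60 within the 41 LV libraries, and with r = 0.70 when the 2 libraries farthest from the median score were left out. Within the RV, Ptgs2 also passed with the fibroblast (0.68, permutation adjusted p = 0.0027) and mural markers (0.49, permutation adjusted p = 0.02). Within the LV these 2 lists did not pass (0.26 and 0.36, permutation adjusted p = 0.208 and 0.0941). Ptgs1 varied with the endothelial markers (r = 0.69, rho = 0.59, permutation adjusted p = 6.43e-05, 0.76 in the RV and 0.63 in the LV, 0.64 without 2 libraries), and at r = 0.64 with the epicardial or mesothelial markers. Ptgis varied with the fibroblast markers (r = 0.76, rho = 0.68, permutation adjusted p = 6.43e-05, 0.74 in the RV and 0.78 in the LV, 0.73 without 2 libraries), and its r with the endothelial, mural, macrophage and epicardial or mesothelial lists was 0.64 to 0.70. Ptger4 varied with the mural markers (r = 0.71, rho = 0.67, permutation adjusted p = 6.43e-05, 0.60 in the RV and 0.79 in the LV, 0.72 without 2 libraries), and also with the endothelial (r = 0.65, rho = 0.70, permutation adjusted p = 6.43e-05, 0.63 without 2 libraries) and the fibroblast markers (r = 0.64, rho = 0.65, permutation adjusted p = 6.43e-05, 0.61 without 2 libraries). The RV and LV libraries of an animal are not independent, so the values within each ventricle carry the comparison.

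Of the 9 members, Ptges2 alone had a positive correlation with the cardiomyocyte markers that passed (r = 0.52, rho = 0.35, permutation adjusted p = 0.000557, 0.54 in the RV and 0.51 in the LV, 0.41 without 2 libraries). Correlations of opposite sign with this list passed for Ptgs1 (r = -0.58, rho = -0.53, permutation adjusted p = 6.43e-05, -0.54 without 2 libraries), Ptgis (r = -0.51, rho = -0.39, permutation adjusted p = 0.0003, -0.48 without 2 libraries), Ptgs2 (r = -0.47, rho = -0.44, permutation adjusted p = 0.00115, -0.41 without 2 libraries) and Ptger4 (r = -0.32, rho = -0.28, permutation adjusted p = 0.024, -0.28 without 2 libraries), and that of Ptger4 was 0.12 with the median over the list in place of the mean. Within the ventricles, the negative correlations of Ptgs1 (RV -0.62, LV -0.57) and Ptgis (RV -0.64, LV -0.43) passed in both. That of Ptgs2 passed in the RV (-0.58, permutation adjusted p = 0.0114) and not in the LV (-0.40, permutation adjusted p = 0.0592). That of Ptger4 passed in neither (RV -0.40, LV -0.27, permutation adjusted p = 0.0844 and 0.197). Ptgds had r = -0.01 with the fibroblast and 0.08 with the endothelial markers (permutation adjusted p = 0.961 and 0.519). With the macrophage markers Ptgds had r = 0.35 (rho = 0.28, permutation adjusted p = 0.0177, 0.34 without 2 libraries), passing within the LV (0.47, permutation adjusted p = 0.021) and not within the RV (0.27, permutation adjusted p = 0.274). Its correlation with the epicardial or mesothelial markers (r = 0.42, rho = 0.33, permutation adjusted p = 0.00115, 0.43 without 2 libraries) passed within the RV (0.54, permutation adjusted p = 0.00924) and not within the LV (0.29, permutation adjusted p = 0.126). Ptgds and Ptger3, which both passed in the 2 failing loaded ventricles, moved together within groups (r = 0.57, rho = 0.56, permutation adjusted p = 0.000112, 0.49 in the RV and 0.68 in the LV, 0.54 without 2 libraries). Other pairs of members passed too, with the highest r for Ptgs1 and Ptgis (r = 0.63, rho = 0.50, permutation adjusted p = 6.43e-05, 0.72 in the RV and 0.54 in the LV, 0.65 without 2 libraries). Ptgis and Ptger4 had r = 0.51 (permutation adjusted p = 0.000112, 0.26 in the RV and 0.72 in the LV). Ptgfr varied with the macrophage markers (r = 0.45, rho = 0.31, permutation adjusted p = 0.00118, 0.46 without 2 libraries), passing within the RV (0.54, permutation adjusted p = 0.0106) and not within the LV (0.37, permutation adjusted p = 0.0941). Ptger3 varied with the macrophage markers in the LV (0.70, permutation adjusted p = 0.000129) and did not pass in the RV (0.31, permutation adjusted p = 0.113).

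**Figure D5:**
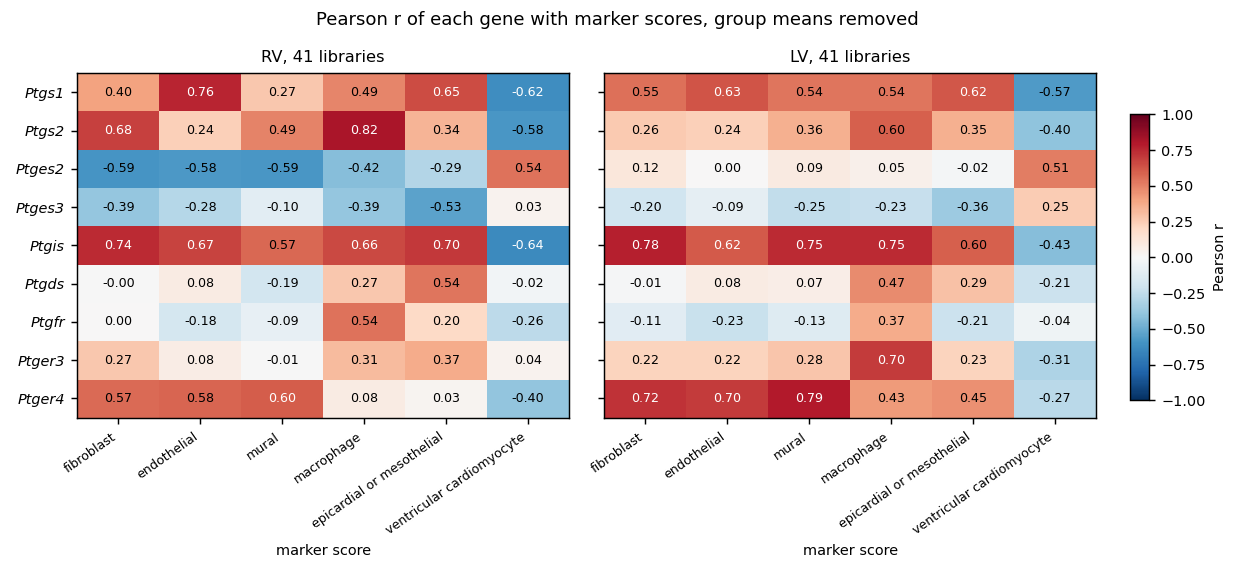
Pearson r between each member (rows) and 6 marker scores (columns) after removal of group means, within the 41 RV libraries (left) and the 41 LV libraries (right), on a colour scale from -1 to 1. High values include Ptgs2 with macrophage markers (0.82 and 0.60), Ptgs1 with endothelial (0.76 and 0.63), Ptgis with fibroblast (0.74 and 0.78) and Ptger4 with mural markers (0.60 and 0.79), while Ptgds stays near 0 with fibroblast markers.

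Several members were high or low in both ventricles of an animal. Across the 41 animals, with group means removed and 9 members compared, the RV and LV values correlated for Ptger4 (r = 0.64, rho = 0.69, permutation adjusted p = 9e-05, 0.67 without 2 animals), Ptgfr (r = 0.61, rho = 0.42, permutation adjusted p = 0.00192, 0.54 without 2 animals), Ptgds (r = 0.55, rho = 0.49, permutation adjusted p = 0.00192, 0.51 without 2 animals), Ptgs2 (r = 0.46, rho = 0.48, permutation adjusted p = 0.0065, 0.45 without 2 animals) and Ptger3 (r = 0.38, rho = 0.37, permutation adjusted p = 0.0345, 0.39 without 2 animals). That of Ptgs1 (r = 0.44, rho = 0.24, permutation adjusted p = 0.042) was 0.22 without 2 animals and rested on those. Ptges2, Ptges3 and Ptgis did not pass by r (0.27, -0.28 and 0.23, permutation adjusted p = 0.14, 0.0697 and 0.189). By rank, Ptges3 passed with an inverse relation (rho = -0.37, permutation adjusted p = 0.0273 for rho), and its r was -0.38 without 2 animals. Ptges2 and Ptgis did not pass by rank (rho = 0.19 and 0.17). This comparison was added after the values had been seen.

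The genes whose pattern within groups was most like each member were sought among 9499 genes with a mean normalized count of at least 50, over the 82 libraries and with group means removed. Ptgs1 was nearest to Vwf (r = 0.80), Tm4sf1 (0.79), Bace2 (0.78), Cytl1 (0.77) and Pecam1 (0.76), of which Vwf and Pecam1 are on the endothelial list. Ptger4 was nearest to Dll4 (0.85), B3gnt2 (0.83), Pdgfb (0.82), Lrrc32 (0.82) and Aqp1 (0.81). Ptgis was nearest to Bgn (0.88), Aebp1 (0.88), Tmem176b (0.86), Vim (0.86) and Itgb4 (0.85). Ptgs2 was nearest to Postn (0.70), Gfpt2 (0.69), Has1 (0.69), Vcan (0.68) and Fgl2 (0.68). Ptges2 was nearest to Myl3 (0.93), Isoc2b (0.91), Oaz1 (0.90), Poldip2 (0.90) and Fbxw5 (0.89), of which Myl3 is on the cardiomyocyte list. Ptges3 was nearest to Ppp3r1 (0.88), Trappc6b (0.88), Rab14 (0.88), Arcn1 (0.86) and Hnrnpk (0.86). The nearest genes of Ptgds were Fuca1 (0.63), Ankrd23 (0.62), C2 (0.61), Nppa (0.60) and Ncam1 (0.59). Those of Ptger3 were Hsd11b1 (0.62), Ankrd23 (0.62), Col18a1 (0.61), Paqr8 (0.60) and Myh7 (0.60). Those of Ptgfr were Raph1 (0.70), Sema5a (0.68), Nabp1 (0.64), Ncam1 (0.64) and Mfap3l (0.63). These values describe the libraries and share their depth and composition.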

How the data were processed

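RNA was measured by sequencing of ribosomal RNA-depleted libraries. According to the submitters' processing notes, reads were trimmed with Trim Galore, aligned with STAR and counted per gene with featureCounts, and the methods of the study name Rnor6.0 as the genome, an earlier build than that of the RefSeq promoters. The authors deposited raw counts, normalized counts (a signal per gene, made with DESeq2 1.28.1 size factors) and FPKM values. Raw counts were used for all tests, FPKM values only to compare levels between genes, and the authors' normalized counts not at all. Normalized counts in the text were computed here, as the raw count over the library's TMM-scaled total, times the mean of that total.

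One edgeR 4.0.16 quasi-likelihood fit (R 4.3.3, filterByExpr, 12 group means, 82 libraries, 70 residual degrees of freedom) gave all contrasts, with Benjamini-Hochberg adjustment over 11954 genes. Alternatives were DESeq2 1.42.0 (with and without shrinkage), its size factors, library totals, no filter, 2 groups alone, sex as a covariate, the criteria of the study (log2 fold change over 1, p up to 0.01, mean over 50), blocks and leaving out each library. Correlations were computed on log2 CPM (prior count 2), with 100000 permutations within groups, which can give no p below 1e-05. The edgeR fit was tested on simulated counts with known changes. The RV and LV libraries of an animal pair by the labels, and their deviations from group means correlated (medians 0.186 to 0.297 by arm, against -0.069 to -0.014 for different animals). Nothing beyond the animal number marks a library as a separate preparation. The members, pathway genes and marker lists were chosen with earlier results of these data known. All 10 members were named, and of the pathway list at most 8 called genes per comparison with the smallest adjusted p. Counting error alone sets the limit given for Ptges.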

Additional observations from a re-analysis of the deposited data

Results flagged for a closer look

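In 20 of the 108 combinations of member and group examined, 1 library lay far from the others by Dixon's criterion at the 95% level. For normally distributed values, chance alone meets it in about 5% of groups. It was applied to normalized counts without a log, which can be skewed, so this rate need not hold here. Ptgs2 reached 698 normalized counts in RV PAB-F replicate 1 (next 109), 84.4 in LV AOB-H replicate 6 (next 18.8) and 62.6 in LV PAB-H replicate 5 (next 21.1). Both ventricles of AOB-H replicate 6 were high in Ptgs1 (247 in the LV and 232 in the RV, next 84.9 and 71.1) and in Ptgis (224 and 247, next 109 and 111). The LV library of this animal had the highest endothelial share of all 82 (0.542%) and the highest mural share (0.197%), and the part of these in its values was not tested. Ptgis was also high in RV PAB-H replicate 2 (473) and LV PAB-H replicate 2 (316), the ventricles of 1 animal, where Ptgds was high in the LV (185), Ptges2 was low in the RV (964) and Ptges3 was low in the LV (518).

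Ptgfr was high in both ventricles of Sham-F replicate 4 (934 in the RV and 305 in the LV), in LV PAB-F replicate 1 (513) and in RV Sham-H replicate 5 (557). The remaining libraries set apart were LV AOB-F replicate 3 (541, low) and LV PAB-F replicate 5 (1209, high) for Ptges3, LV Sham-F replicate 2 for Ptgds (124) and LV Sham-F replicate 3 for Ptger3 (45.4).

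The response of Ptgds to PAB-F differed between the ventricles when the animal was a block, by 1.25 on the log2 scale (RV minus LV, edgeR adjusted p = 0.00756), and not in the fit without it (1.31, edgeR adjusted p = 0.114).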

How the results depend on the processing

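Depth limits Ptges (0 to 6 raw counts per library) and Ptger3 (0 to 189). The number of members called in RV PAB-H was 3 and became 1 with sex as a covariate, and 0 to 4 with 1 library left out. In RV PAB-F it was 5, and 1 to 5 with 1 library left out. In LV AOB-H it was 0, and 0 to 1 with 1 library left out. In LV AOB-F it was 4 and became 2 with the replicate block, 0 with a fit to 2 groups alone and 2 under the criteria of the study, with 1 to 5 upon leaving out 1 library. In RV AOB-F it was 0 and became 1 (Ptgfr) under the criteria of the study. Between the ventricles of Sham-H it was 4 and became 2 under the criteria of the study, with 2 to 5 upon leaving out 1 library. Between LV Sham-F and LV Sham-H it was 5 and became 3 with 2 groups alone and 1 under the criteria of the study. For the difference of the PAB-F responses it was 0 and became 1 with the animal as a replicate block, with 0 to 1 upon leaving out 1 library. The cause was not tested beyond the construction of these settings, some of which use fewer libraries or stricter criteria.

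For single members, all 38 values examined kept their direction and side of the threshold under DESeq2, its shrunken version, its size factors and library totals. Of 38 values, 2 lost their call without the filter and 2 with sex as a covariate. Of 24 values, 4 lost it with the replicate number as a block. Libraries of different groups with the same number had a median r of -0.103 to 0.16 by comparison, with pairs of either sign in most. For RV PAB-F and LV PAB-F against sham, all such pairs were positive (0.036 to 0.249 and 0.059 to 0.355). Their medians were 0.139 and 0.16, against -0.032 and -0.037 for different numbers. Males came before females in the numbering of each group, and what libraries of the same number share was not tested. With the animal as a block 2 of 14 values gained a call and no other call changed. Of 607 values with 1 library left out, 45 lost and 10 gained a call. The correlation of Ptger4 with the cardiomyocyte markers (r = -0.32) became 0.12 with the median over the list in place of the mean.

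Over all genes tested, the number called in RV PAB-H was 538 and became 346 without the filter, 326 with sex as a covariate, 1642 with 2 groups alone and 217 under the criteria of the study. In RV PAB-F it was 1325 and became 2726 with 2 groups alone and 227 under the criteria of the study. In LV AOB-F it was 1541 and became 15 and 145, respectively. In LV AOB-H it was 2 and became 35 with DESeq2 and 25 under the criteria of the study. Between the ventricles of Sham-H it was 2510 and became 3887 with the animal as a replicate block, 1499 with 2 groups alone and 338 under the criteria of the study. For the difference of the PAB-F responses it was 42 and became 349 with that block.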
